A study of Mus musculus with 115 samples.

Results

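At 2 weeks after kainic acid (KA), some dentate granule cells of the injected hippocampus held C1ql2 mRNA and the rest had almost none, and the other genes of these cells are described here by that split. The cells were chosen by their C1ql2 level: the 63 KA cells that passed the authors' quality control (QC), of 95 passed cells and 115 cells in all, were split at 10 CPM (counts scaled to a total of 1000000 per cell) into 21 keeping cells and 42 losing cells. C1ql2 itself is therefore a description of the split and no finding, and no test was made between the groups, because each library is 1 cell and no label names its mouse. The labels' QC marks are offset by 1 title from the cells that the passed table holds, and a like offset of the treatment or EGFP labels would change the groups.

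All cells came from Rbp4-Cre transgenic mice, in which a retrograde AAV carrying EGFP had been put into the right ventral hippocampus, and either KA (an agonist of glutamate receptors, used to provoke seizures) or saline, together with AAV.cDIO-mCherry, a virus switched on by Cre, into the left hippocampus. After 2 weeks, granule cells on the left were taken up through a patch pipette, whether or not they carried mCherry, and the RNA of each was sequenced. EGFP+ cells had taken up the virus through an axon on the other side; an EGFP- cell may lack such an axon or may have missed the virus. The KA keeping cells were 12 EGFP+ and 9 EGFP- cells, the KA losing cells 15 EGFP+ and 27 EGFP- cells, and the saline cells given beside them 5 EGFP+ and 27 EGFP- cells. The study states 9 mice for the KA EGFP+ cells and 3 mice for each other class. The cell titles are numbered in a first series of 1 to 48, which holds KA cells only (18 keeping, 27 losing), and a second series of higher numbers, which holds the other KA cells (3 keeping, 15 losing) and all 32 saline cells.

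C1ql2 encodes a small secreted protein of the C1q family that granule cells release from their mossy fibre terminals onto CA3 neurons. There it binds neurexins on the presynaptic side and recruits kainate-type glutamate receptors on the postsynaptic side, and adhesion receptors of the Adgrb family bind its family members; in the mouse, the transcription factor Bcl11b is known to act upstream of it. Granule cells are otherwise marked by the homeodomain factor Prox1 and the calcium buffer calbindin (Calb1), and seizures are known to raise neuropeptides such as enkephalin and neuropeptide Y in them.

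The 250 bases before the RefSeq start (build GRCm38.p6) of the gene that made the split, of the gene with the largest positive difference among the others (Pxdn), and of the peptide genes Cartpt and Cck, both lower in keeping cells, are shown to set their start regions side by side. They lie at chr1:120340332-120340581 on the + strand (C1ql2), chr12:29937786-29938035 on the + strand (Pxdn), chr13:99900684-99900933 on the - strand (Cartpt) and chr9:121495695-121495944 on the - strand (Cck). Capitals mark matches to TGACG, the core of the cAMP response element, or to the AP-1 motif TGANTCA, on either strand.
C1ql2: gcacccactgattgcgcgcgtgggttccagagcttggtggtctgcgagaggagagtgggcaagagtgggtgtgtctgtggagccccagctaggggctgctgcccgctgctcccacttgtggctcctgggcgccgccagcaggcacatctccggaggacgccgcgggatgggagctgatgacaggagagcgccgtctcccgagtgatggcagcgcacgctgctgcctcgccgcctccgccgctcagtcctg
Pxdn: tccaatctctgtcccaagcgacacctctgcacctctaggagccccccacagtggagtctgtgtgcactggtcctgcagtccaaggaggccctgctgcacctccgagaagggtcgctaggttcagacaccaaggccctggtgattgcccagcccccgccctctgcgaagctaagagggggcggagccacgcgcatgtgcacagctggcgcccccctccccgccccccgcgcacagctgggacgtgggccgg
Cartpt: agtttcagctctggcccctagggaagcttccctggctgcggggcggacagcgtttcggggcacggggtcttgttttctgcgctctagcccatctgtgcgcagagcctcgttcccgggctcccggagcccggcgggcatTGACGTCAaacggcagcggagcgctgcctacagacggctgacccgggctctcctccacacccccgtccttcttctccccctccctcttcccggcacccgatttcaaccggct
Cck: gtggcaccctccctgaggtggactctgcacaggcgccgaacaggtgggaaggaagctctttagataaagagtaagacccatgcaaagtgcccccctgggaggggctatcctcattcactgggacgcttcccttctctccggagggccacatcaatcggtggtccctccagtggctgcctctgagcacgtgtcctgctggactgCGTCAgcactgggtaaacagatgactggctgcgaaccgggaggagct
The Cartpt sequence held the full element TGACGTCA, in which both strands match the core, so its 2 core matches overlap each other. Cck held 1 core match, and neither the C1ql2 nor the Pxdn sequence held one. Of 27025 such sequences, one for each gene, 17.9% held the core, 1.62% the full element, 6.87% the AP-1 motif and 4.65% the Egr motif GCGNGGGCG, and none of the 4 printed sequences held either of the last motifs. These are letters in a window, and binding was not measured. In the GENCODE M21 annotation Pxdn begins at chr12:29937608 on the + strand and Cartpt at chr13:99901091 on the - strand. The printed Pxdn and Cartpt windows therefore lie inside the bounds of those genes, though before their RefSeq starts.

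C1ql2 was well above the threshold or near 0 in every KA cell. In keeping cells it ran from 37.8 to 1244 CPM with a median of 265.96 CPM, in losing cells 41 of 42 cells had 0 counts and the other had 6.04 CPM, and in saline cells it ran from 0 to 5161 CPM with a median of 563 CPM. The cells on either side of the threshold thus stood at 37.8 CPM and 6.04 CPM, with no KA cell in between. The share of keeping cells was 33.3% (95% Clopper-Pearson interval 21.95 to 46.3%), while 27 of 32 saline cells (84.4%, 67.2 to 94.7%) reached 10 CPM. Within the saline cells that reached it the median was 686 CPM. Such intervals cover counting error only and take cells as independent of their mouse. Where no cell of a group reached 10 CPM, taking 3 cells as the limit that a count of 0 allows, the share could be up to 14.3% of keeping cells, 7.14% of losing cells and 9.38% of saline cells.

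By EGFP class after KA, keeping cells made up 12 of 27 EGFP+ libraries (44.4%, 25.5 to 64.7%) and 9 of 36 EGFP- libraries (25%, 12.1 to 42.2%). By title they were 18 of 45 cells (40%, 25.7 to 55.7%) in titles 1 to 48 and 3 of 18 cells (16.7%, 3.58 to 41.4%) in the second series. Like cells often stood next to each other: the 10 passed cells of titles 27 to 37 were losing cells, the 7 of titles 38 to 45 were keeping cells, and the first 8 KA cells of the second series all had 0 counts of C1ql2. The 6 saline cells just before those 8 held C1ql2 at 373 CPM or more. The labels do not say whether neighbouring titles share a mouse or a day, so a cell's state and its source cannot be told apart. The 4 KA cells outside the passed table had 0 counts of C1ql2 in libraries of 17928 to 1107068 counts.

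**Figure D1:**
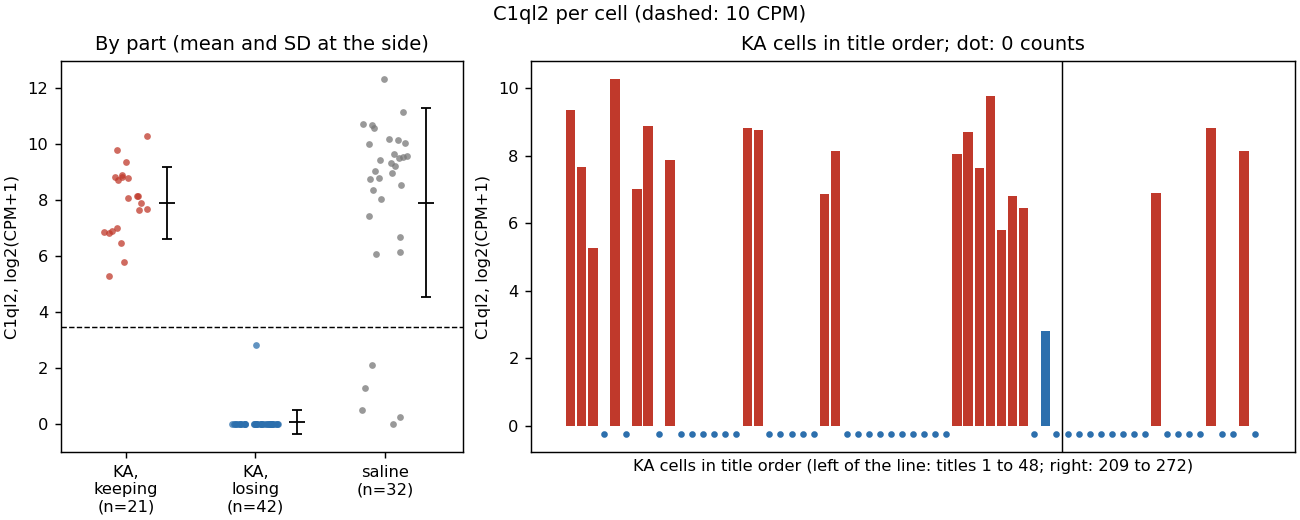
C1ql2 level per cell as log2(CPM+1): on the left in 21 KA keeping, 42 KA losing and 32 saline cells (points) with mean and SD over cells, on the right in the 63 KA cells in title order (bars; dots below 0 mark cells with 0 counts). No KA cell lies between 6.04 and 37.8 CPM, and like cells stand in runs.

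The libraries of the groups were not alike. Keeping cells had 3626 to 9945 genes with a count (median 6535), losing cells 1469 to 9743 (median 5170.5) and saline cells 1718 to 9844 (median 4386.5). Fewer than 4000 genes were found in 2 of 21 keeping cells, 17 of 42 losing cells and 13 of 32 saline cells. Total counts per cell ran from 2938404 to 13993379 in keeping cells, from 1657692 to 56183007 in losing cells and from 1277978 to 11758759 in saline cells. Counts in 24 microglia markers were a median 0.0183% of the total in keeping cells, 0.0171% in losing cells and 0.135% in saline cells, mitochondrial RNA 0.404% in keeping, 0.623% in losing and 0.391% in saline cells, and ribosomal RNA 0.539% in keeping, 0.672% in losing and 1.95% in saline cells. The part of these differences in the results was not tested. Many values are also given inside titles 1 to 48, where median genes per cell were 7243 in keeping and 6487 in losing cells, and among cells with at least 4000 genes (19 keeping, 25 losing), where they were 7057 and 6573.

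**Figure D2:**
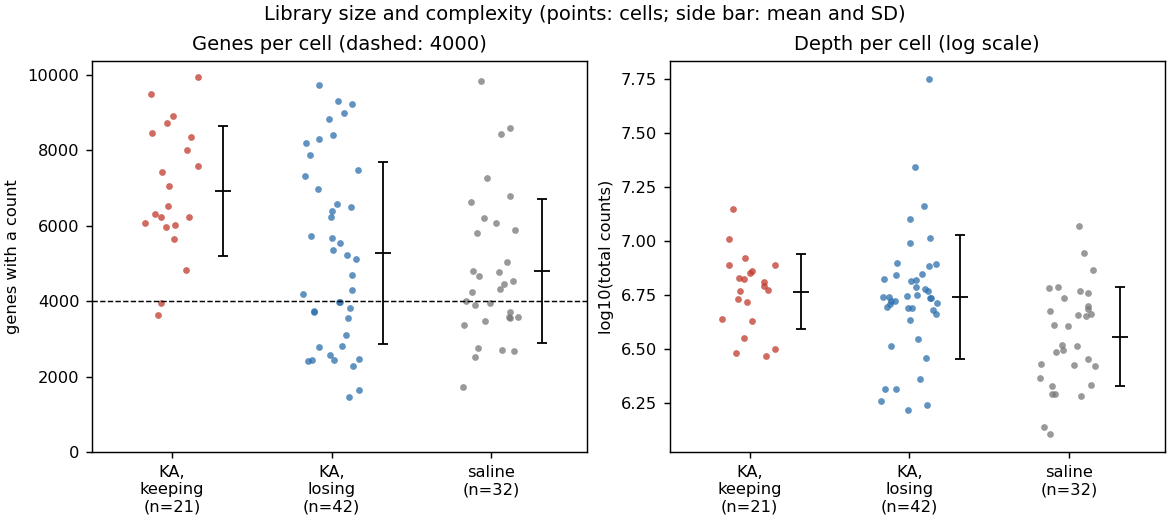
Genes with a count (left) and total counts on a log10 scale (right) in KA keeping, KA losing and saline cells; points are cells, side bars mean and SD over cells. The 17 losing cells below the dashed line at 4000 genes have 2 counterparts among the keeping cells.

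Across 8696 genes with at least 5 CPM in at least 20% of KA cells, the mean log2(CPM+1) of keeping minus losing cells had a median of 0.90, and 7432 of them had a difference above 0, so list values below are also given relative to that median. By at least 2 on this log2 scale, 947 genes (10.9%) were higher and 6 genes (0.069%) were lower in keeping cells. Inside titles 1 to 48 the median was 0.54, with 551 genes (6.34%) higher and 45 (0.517%) lower, and among cells with at least 4000 genes it was 0.24, with 2.91% of genes higher and 66 genes (0.759%) lower. With genes per cell, title series and EGFP class in a least-squares fit the median was 0.05, with 150 genes higher and 80 lower. The 13 genes named in each direction are those with the largest differences that also had the same sign in both title series and both EGFP classes and a size of at least 1 inside titles 1 to 48. In summed counts over cells the differences of the 13 higher genes ran from 0.23 (Camkk1) to 3.93 (Pxdn).

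Pxdn, which encodes a peroxidase that crosslinks collagen of the basement membrane, had the largest positive difference of all measured genes but C1ql2. It ran from 0 to 922 CPM (median 78.2) in keeping cells, from 0 to 338 CPM (median 0) in losing cells and from 0 to 956 CPM (median 0.476) in saline cells. At 10 CPM or more it was found in 18 of 21 keeping cells (85.7%, 63.7 to 97.0%), in 5 of 42 losing cells (11.9%, 3.98 to 25.6%) and in 13 of 32 saline cells (40.6%, 23.7 to 59.4%). The groups overlapped in range, yet all 15 EGFP+ losing cells were under 10 CPM. The difference of mean log2(CPM+1) was 4.96 (means 6.05 ± 2.33 and 1.09 ± 2.16, SD over 21 keeping and 42 losing cells), 5.42 inside titles 1 to 48, 3.68 in the second series and 4.78 among cells with at least 4000 genes. Over the 18 other settings tried it ran from 3.38 to 6.54.

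Rprm, a p53-induced inhibitor of the cell cycle, followed with a difference of 4.34 (5.52 ± 3.88 in keeping cells, 1.19 ± 2.80 in losing cells). It reached 10 CPM in 15 of 21 keeping cells, 7 of 42 losing cells and 6 of 32 saline cells, so the share was highest in keeping cells. Pxdn and Rprm reached 10 CPM together in 13 of 21 keeping cells, 2 of 42 losing cells and 4 of 32 saline cells. Sema3e, a secreted axon guidance cue, had a like profile at a lower level: 10 of 21 keeping cells, 2 of 42 losing cells and 0 of 32 saline cells had 10 CPM or more, a difference of 2.598 that was 2.52 among cells with at least 4000 genes.

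Camkk1, a kinase that activates other calcium/calmodulin-dependent kinases, differed by 3.57 (7.08 ± 2.54 in keeping cells, 3.51 ± 3.98 in losing cells) and Dgkb, a diacylglycerol kinase, by 3.72. Cacng3, an auxiliary subunit of AMPA receptors, differed by 3.66, and Gabra4, a GABA-A receptor subunit found at extrasynaptic sites of granule cells, by 3.60. Gabra4 reached 10 CPM in 20 of 21 keeping cells, 22 of 42 losing cells and 16 of 32 saline cells. Among cells with at least 4000 genes these differences were 3.34 for Camkk1, 3.53 for Dgkb, 2.64 for Cacng3 and 2.45 for Gabra4. Camkk1 differed by 0.37 in the second title series.

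The other named higher genes were Necab3 (4.08), a binding partner of an amyloid adaptor, Rangap1 (3.96), the GTPase-activating protein of Ran in nuclear transport, Gpd2 (3.85), the mitochondrial glycerol-3-phosphate dehydrogenase, Synpr (3.74), Diras2 (3.65), a small GTPase, Magee1 (3.57) and Wipf3 (3.53), an actin regulator. Rangap1 and Magee1 differed less inside titles 1 to 48, by 2.68 and 1.93. The libraries carry no strand, and exons of Necab3, Rangap1, Gpd2, Gabra4 and Wipf3 overlap another gene, so reads of these genes could come in part from 1700003F12Rik, Zc3h7b, A930012O16Rik, Gabrb1, Scrn1 or 9130019P16Rik.

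**Figure D3:**
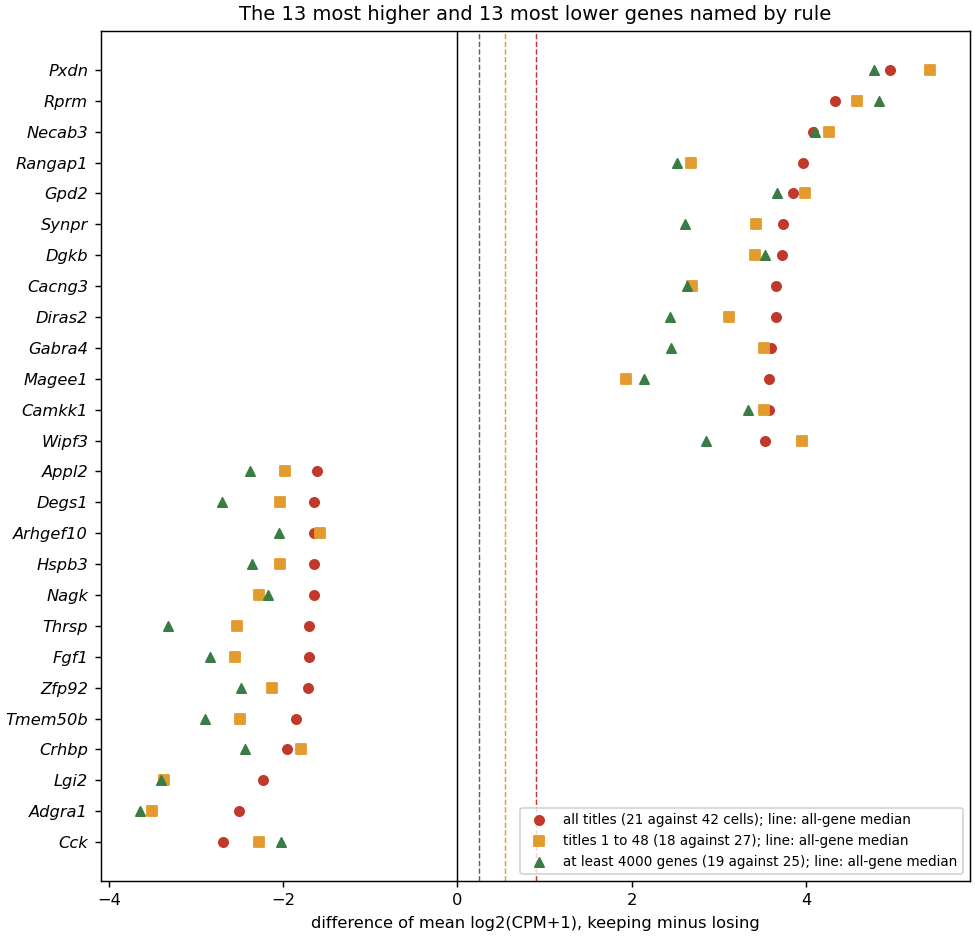
Difference of mean log2(CPM+1), keeping minus losing cells, of the 13 named higher and 13 named lower genes, which have 1 sign in both title series and both EGFP classes; circles are all titles, squares titles 1 to 48, triangles cells with at least 4000 genes, and dashed lines the all-gene medians (0.90, 0.54 and 0.24). The lower genes lie further from 0 among cells with at least 4000 genes, except Cck.

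Granule cell markers other than C1ql2 were higher in keeping cells as a list. Of 25 markers 19 were measured, 18 of them with a difference above 0, 16 above the all-gene median and 6 at 2 or more (background 10.9%). Their median difference was 1.70, which is 0.80 above the all-gene median, and this margin was 0.90 inside titles 1 to 48, 0.75 in the second series and 0.92 among cells with at least 4000 genes. The summed level of the 25 markers ran from 1207 to 6653 CPM (median 3710) in keeping cells, from 9.16 to 8418 CPM (median 2128) in losing cells and from 2.39 to 13892 CPM (median 5848) in saline cells. At least 1 marker at 10 CPM was found in 21 of 21 keeping cells, 41 of 42 losing cells and 31 of 32 saline cells. The same was found for mossy cell markers in 21 of 21, 41 of 42 and 32 of 32 cells and for astrocyte markers in 21 of 21, 42 of 42 and 30 of 32 cells, so this count does not tell cell types apart. Reads of Jun, Prox1, Cdh9 and C1ql3 cannot be told from those of overlapping genes (Junos, Prox1os, Gm49127 and Gm37811 or Gm37824).

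Synpr, a protein of synaptic vesicles at mossy fibre terminals, was the marker with the largest difference. It ran from 0 to 1119 CPM (median 447) in keeping cells, 0 to 1101 CPM (median 0.294) in losing cells and 0 to 2744 CPM (median 593) in saline cells. It reached 10 CPM in 17 of 21 keeping cells (81.0%, 58.1 to 94.5%), 19 of 42 losing cells (45.2%, 29.9 to 61.3%) and 26 of 32 saline cells (81.2%, 63.6 to 92.8%), so the keeping and saline shares lay close together. Stxbp6, a syntaxin-binding protein, differed by 3.23, with 13 of 21 keeping cells, 7 of 42 losing cells and 21 of 32 saline cells at 10 CPM. Dock10 differed by 3.21, with 18 of 21, 17 of 42 and 24 of 32 cells. In the second series, with 3 keeping cells, these differences were 2.67 for Synpr, -0.62 for Stxbp6 and 0.78 for Dock10.

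The adhesion molecule Cdh9 (2.82), the phosphatidylinositol transfer protein Pitpnm2 (2.32) and Jun (2.26), a subunit of AP-1, were the other markers at 2 or more, and among cells with at least 4000 genes they differed by 1.94, 1.65 and 1.54. Prox1 differed by 1.97, and by 1.47 among those cells, with 19 of 21 keeping cells, 25 of 42 losing cells and 19 of 32 saline cells at 10 CPM. Calb1 differed by 1.46 over all titles, by 0.16 inside titles 1 to 48 and by 5.79 in the second series. C1ql3, a close relative of C1ql2 that granule cells also make, differed by 1.61 (16 of 21, 22 of 42 and 20 of 32 cells at 10 CPM). Plk5, too rare to be measured, reached 10 CPM in 3 of 21 keeping cells, 0 of 42 losing cells and 13 of 32 saline cells.

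A pair of genes outside that list was also held by more keeping and saline cells than losing cells. Camk2n1, an inhibitor of CaM kinase II, ran from 0 to 493.4 CPM (median 28.5) in keeping cells, 0 to 241.6 CPM (median 0) in losing cells and 0 to 673 CPM (median 172) in saline cells. At 10 CPM or more it was found in 13 of 21 keeping cells (61.9%, 38.4 to 81.9%), 6 of 42 losing cells (14.3%, 5.43 to 28.5%) and 29 of 32 saline cells (90.6%, 74.98 to 98.02%), placing keeping cells between losing and saline cells. Its difference was 3.62, and 3.97 among cells with at least 4000 genes. Ano3, a member of the anoctamin family whose exons overlap Muc15, differed by 3.02, with 11 of 21, 6 of 42 and 20 of 32 cells at 10 CPM. In titles 1 to 48 the differences were 4.50 for Camk2n1 and 3.57 for Ano3, but in the second series, where no keeping cell held Camk2n1 at 10 CPM, they were -0.73 and -0.74.

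**Figure D4:**
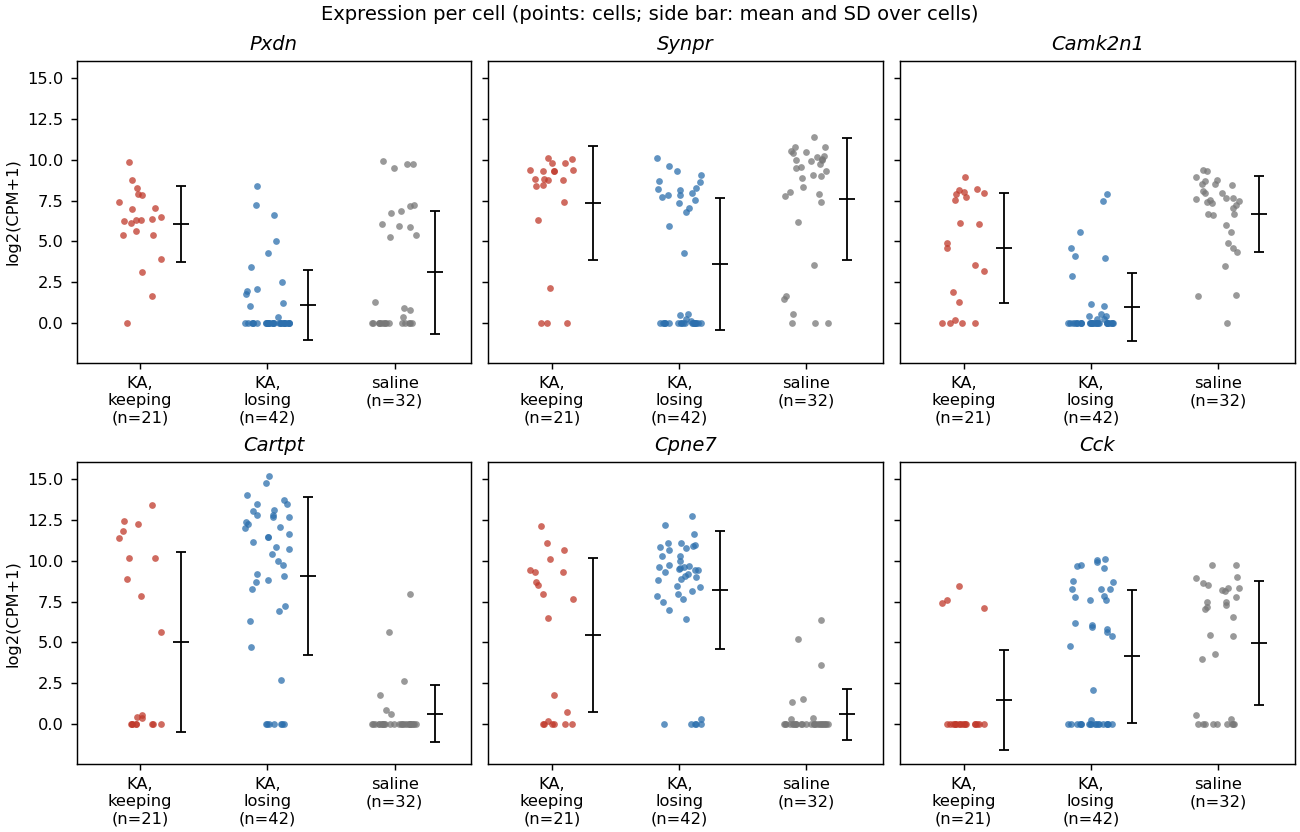
Level per cell as log2(CPM+1) of 3 genes higher (top) and 3 genes lower (bottom) in keeping cells, in 21 KA keeping, 42 KA losing and 32 saline cells; side bars are mean and SD over cells. Within each KA group some cells are near 0 and others high, and the groups overlap for all 6 genes.

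Some genes that saline cells held were rare in or absent from both KA groups. Cygb, a globin, reached 10 CPM in 0 of 21 keeping cells, 0 of 42 losing cells and 21 of 32 saline cells. Tdo2, an enzyme of tryptophan breakdown, had 0 counts in every KA cell, whereas 6 of 32 saline cells held it at 10 CPM. Pxdc1 reached 10 CPM in 1 of 21 keeping cells, 3 of 42 losing cells and 14 of 32 saline cells. In each of these genes, keeping and losing cells both had lower shares than saline cells. For Tdo2 the saline share was 18.75% (7.21 to 36.4%), close to the 14.3% that a count of 0 allows in keeping cells. All saline cells stood in the second title series, which held 3 of the 21 keeping and 15 of the 42 losing cells.

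Of 22 transcription factors of granule cells 18 were measured. A difference above 0 was found for 16 of them, near the share of all genes (7432 of 8696), and 15 lay above the all-gene median. At 2 or more was 1 of them (10.9% of all genes were), Klf9 at 2.15, a factor induced by glucocorticoids. The list's median minus that of all genes was 0.43, and -0.41 in the second series, where Klf9 differed by -0.13. Zbtb20, a repressor that marks hippocampal neurons, was held by every keeping cell at 217.8 CPM or more and by 35 of 42 losing cells at 10 CPM, a difference of 1.86. Bcl11b, the factor upstream of C1ql2, reached 10 CPM in 11 of 21 keeping cells, 15 of 42 losing cells and 18 of 32 saline cells. Its difference was 1.13 over all titles, 0.71 among cells with at least 4000 genes, -0.64 in the second series and -0.13 in EGFP- cells.

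Partners of C1ql2 were mostly held by both groups. Of 19 listed C1q-like proteins and partners 11 were measured, all 11 above 0, as were 7432 of all 8696 genes. At 2 or more was 1 of them, a share near the 10.9% of all genes, and their median lay 0.13 above that of all genes. The gene at 2 or more was Nrxn3, a presynaptic neurexin, at a median of 98.8 CPM (0 to 1169) in keeping cells, 8.08 CPM (0 to 467) in losing cells and 0 CPM (0 to 119) in saline cells. It reached 10 CPM in 18 of 21, 20 of 42 and 7 of 32 cells, a difference of 2.78 that was 1.65 among cells with at least 4000 genes. The kainate receptor subunits Grik5, Grik2 and Grik4 differed by 1.56, 1.04 and 0.45, and in the second series by -0.52, 1.42 and -0.18. The receptors Adgrb2, Adgrb1 and Adgrb3 differed by just under 2.00, by 1.04 and by 0.43 (-0.03 inside titles 1 to 48 for Adgrb3), and Adgrb3 was held at 10 CPM by 15 of 21 keeping cells, 27 of 42 losing cells and 12 of 32 saline cells. Other C1q-like genes (C1ql1, C1ql4, Cbln1, Cbln2, Cbln4) reached 10 CPM in at most 2 of 21 keeping and 1 of 42 losing cells.

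The 6 genes lower by at least 2 were Cartpt, Cpne7, Cck, Adgra1, Lgi2 and Nell1. Nell1, a secreted protein outside the naming rule because its sign turned in the second series (1.38), differed by -2.16 over all titles. Inside titles 1 to 48 all of these but Cck (-2.28) were lower by at least 3 (Cartpt -5.87, Nell1 -3.69, Adgra1 -3.50, Lgi2 -3.37, Cpne7 -3.13). All but Cck reached 10 CPM in at most 4 of 32 saline cells.

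Cartpt, which encodes the neuropeptide precursor CART, had the largest negative difference. It ran from 0 to 11056 CPM (median 0.47) in keeping cells, from 0 to 38167 CPM (median 1748) in losing cells and from 0 to 245.9 CPM (median 0) in saline cells. It reached 10 CPM in 10 of 21 keeping cells (47.6%, 25.7 to 70.2%), 34 of 42 losing cells (81.0%, 65.9 to 91.4%) and 2 of 32 saline cells (6.25%, 0.766 to 20.8%). The plot of levels per cell shows keeping cells with and without Cartpt, and the groups overlapped. The difference was -4.03 (5.02 ± 5.51 in keeping cells, 9.06 ± 4.85 in losing cells), -5.42 in EGFP+ cells and -2.36 in EGFP- cells. Inside titles 1 to 48 it was -5.87, with 8 of 18 keeping and 25 of 27 losing cells at 10 CPM, and among cells with at least 4000 genes -5.53, with 9 of 19 and 23 of 25 cells. In the second series it was 0.20, with 2 of 3 keeping and 9 of 15 losing cells.

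Cpne7, a calcium-dependent membrane-binding protein whose exons overlap Mir7080, had a like pattern. It reached 10 CPM in 12 of 21 keeping cells (57.1%, 34.02 to 78.18%), 36 of 42 losing cells (85.7%, 71.5 to 94.6%) and 3 of 32 saline cells (9.38%, 1.98 to 25.02%). Its difference was -2.76 over all titles, -3.13 inside titles 1 to 48, -4.07 among cells with at least 4000 genes and 1.08 in the second series. Both genes reached 10 CPM together in 8 of 21 keeping cells, 28 of 42 losing cells and 1 of 32 saline cells, and neither did so in 7 keeping, 0 losing and 28 saline cells. Cartpt and Pxdn reached 10 CPM together in 8 of 21 keeping cells and 4 of 42 losing cells, and Pxdn without Cartpt in 10 keeping cells and 1 losing cell.

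Cck, which encodes cholecystokinin, was lower in keeping cells than in both other groups. Its median was 0 CPM (0 to 355) in keeping cells, 33.8 CPM (0 to 1092) in losing cells and 112 CPM (0 to 848) in saline cells. It reached 10 CPM in 4 of 21 keeping cells (19.05%, 5.45 to 41.9%), 22 of 42 losing cells (52.4%, 36.4 to 68.0%) and 21 of 32 saline cells (65.6%, 46.8 to 81.4%). The difference was -2.70 over all titles, -2.28 inside titles 1 to 48 and -4.47 in the second series, where 0 of 3 keeping and 8 of 15 losing cells held it.

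Adgra1, an orphan adhesion receptor, and Lgi2, a secreted protein of a family linked to epilepsy, were held by more losing cells. Adgra1 reached 10 CPM in 7 of 21 keeping cells, 28 of 42 losing cells and 4 of 32 saline cells, a difference of -2.51, and Lgi2 in 9 of 21, 28 of 42 and 2 of 32 cells, a difference of -2.23. Among cells with at least 4000 genes the differences were -3.64 and -3.40. The growth factor Fgf1 reached 10 CPM in 2 of 21 keeping cells, 14 of 42 losing cells and 0 of 32 saline cells, and Crhbp, which binds corticotropin-releasing hormone, in 2, 14 and 0 cells. The highest keeping cell held Crhbp at 5101 CPM and the highest losing cell at 6150 CPM, and in summed counts Crhbp differed by 0.09 only.

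The remaining lower genes named by the rule were Tmem50b (-1.86), Zfp92 (-1.72), Thrsp (-1.71), a regulator of fatty acid synthesis, Nagk (-1.65), the kinase of N-acetylglucosamine, Hspb3 (-1.65), a small heat shock protein, Arhgef10 (-1.65), Degs1 (-1.64), a desaturase of ceramide synthesis, and Appl2 (-1.61), an endosomal adaptor. Appl2 reached 10 CPM in 0 of 21 keeping cells, 11 of 42 losing cells and 8 of 32 saline cells. Its highest keeping value was 9.11 CPM, so it counted as measured mainly through losing cells. Among cells with at least 4000 genes all 8 differed by between -3.32 (Thrsp) and -2.05 (Arhgef10). Appl2 was not alone in passing the filter mainly through losing cells. Fgf1, Crhbp, Zfp92 and Arhgef10 each reached 10 CPM in 2 of 21 keeping and 14 of 42 losing cells, and Hspb3 in 3 and 16. Of the higher genes, Pxdn (18 and 5 cells) and Rprm (15 and 7) passed it largely through keeping cells. The direction of such genes is therefore not independent of the filter.

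Penk, the enkephalin precursor, reached 10 CPM in 19 of 21 keeping cells (90.5%, 69.6 to 98.8%), 30 of 42 losing cells (71.4%, 55.4 to 84.3%) and 4 of 32 saline cells (12.5%, 3.51 to 28.99%). Its difference was 1.45 over all titles but -1.24 inside titles 1 to 48, 4.91 in the second series and -0.26 among cells with at least 4000 genes. The exons of Penk overlap A830012C17Rik. Npy, neuropeptide Y, reached 10 CPM in 12 of 21, 27 of 42 and 1 of 32 cells, a difference of -1.18 (-1.04 inside titles 1 to 48, 0.34 in EGFP+ cells and -2.63 in EGFP- cells). Pdyn, the dynorphin precursor, reached 10 CPM in 7 of 21, 8 of 42 and 9 of 32 cells, and Adcyap1, the precursor of PACAP, in 1 of 21, 4 of 42 and 1 of 32 cells. Every one of the 10 keeping cells with Cartpt also held Penk, and 27 of the 34 losing cells with Cartpt did.

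Of 27 seizure-regulated peptides and secreted factors 22 were measured, 16 above 0 (7432 of all 8696 genes were) and 11 above the all-gene median. By at least 2, 3 were higher and 2 lower (Cartpt and Cck), against 10.9% and 0.069% of all genes. The list's median was -0.02 relative to all genes, and -0.92 inside titles 1 to 48. Bdnf, the growth factor, differed by 0.57 over all titles, -0.45 inside titles 1 to 48 and -0.07 among cells with at least 4000 genes, and was held at 10 CPM by 21 of 21 keeping cells, 39 of 42 losing cells and 23 of 32 saline cells. Sorcs3, a sorting receptor, differed by 0.05 over all titles, -0.81 inside titles 1 to 48, 3.14 in the second series and -0.75 among cells with at least 4000 genes, and was held by 17 of 21, 32 of 42 and 2 of 32 cells. The secretory granule proteins Scg2 and Chga differed by -0.46 and 0.09, and Vgf, a neurosecretory peptide precursor, by -1.26, and inside titles 1 to 48 by -1.48, -0.72 and -1.57. Members at 2 or more, all under 2 among cells with at least 4000 genes, were Sv2c (2.47), Nptx1 (2.21) and the prohormone convertase Pcsk1 (2.12), which cuts several of these precursors and reached 10 CPM in 10 of 21, 8 of 42 and 2 of 32 cells.

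Rasgrp1, an activator of Ras, had a share that was highest in keeping cells, at 10 CPM in 20 of 21 keeping cells, 26 of 42 losing cells and 3 of 32 saline cells. Its difference was 2.40, 2.32 inside titles 1 to 48 and 2.25 among cells with at least 4000 genes. Rgs4, a regulator of G protein signalling, was held by 21 of 21, 37 of 42 and 18 of 32 cells with a difference of 1.52.

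Immediate early genes, which neuronal activity switches on, lay close to the median of all genes over all titles. Relative to it they lay at -0.21 inside titles 1 to 48 and at 0.90 in the second series, with 3 keeping cells. Of 35 immediate early genes 34 were measured, 30 above 0 (as were 7432 of all 8696 genes) and 19 above the all-gene median. Over all titles 5 were at 2 or more (background 10.9%) and 0 at -2, with a median 0.10 above that of all genes. The 5 were Nfil3 (2.64), Nr4a2 (2.61), Gadd45b (2.33), Jun (2.26) and Fosl2 (2.01), and inside titles 1 to 48 they differed by 2.37, 1.56, 1.09, 1.73 and 1.01. Fos differed by -0.62 (-1.64 inside titles 1 to 48, 0.89 in the second series) and was held at 10 CPM by 16 of 21 keeping cells, 32 of 42 losing cells and 30 of 32 saline cells. Arc differed by 1.32 and Egr4 by 1.47, and among cells with at least 4000 genes by 0.13 and 0.94.

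Genes of GABA synthesis, which granule cells are known to make more of after seizures, were held by both KA groups. Gad1 reached 10 CPM in 20 of 21 keeping cells, 36 of 42 losing cells and 24 of 32 saline cells (difference 0.03, and -0.37 inside titles 1 to 48), and Gad2 in 4 of 21, 15 of 42 and 1 of 32 cells (difference -1.70, 0.27 in EGFP+ and -3.56 in EGFP- cells). With Cck, Npy and Adarb2 these were the 5 measured of 23 GABA and interneuron genes, with a median difference of -1.18. Of the 23 genes, 16 reached 10 CPM in no keeping cell, 14 in no losing cell and 8 in no saline cell. Slc32a1, Sst, Vip, Lhx6 and Reln were among those at 10 CPM in no KA cell, while Pvalb and Erbb4 reached it in losing cells. Mossy cell markers (7 of 20 measured) lay 0.18 above the all-gene median, and 0.20 above it among cells with at least 4000 genes. In the second series they lay at -1.86 relative to it. Pyramidal cell markers (13 of 24) lay 0.28 below it, but 0.09 above inside titles 1 to 48 and 0.34 above among cells with at least 4000 genes. Mossy cell markers summed to a median of 380 CPM in keeping, 425 CPM in losing and 497 CPM in saline cells. Of the 20 mossy cell markers 6 reached 10 CPM in no keeping cell and 8 in no losing cell, Calb2 and Drd2 in neither.

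Over all titles, ion channel and receptor lists lay within 0.59 of the all-gene median. Inside titles 1 to 48 GABA receptors lay at 0.63, sodium and calcium channels at 0.68, potassium and HCN channels at -0.06 and glutamate receptors at 0.23. In the second series, in the same order, they lay at 0.84, 0.03, 1.08 and -0.38. The counts at 2 or more, over all titles, are to be read beside the 10.9% of all genes, or 2.91% among cells with at least 4000 genes. GABA receptor genes (12 of 15 measured, 3 at 2 or more) lay 0.59 above all genes, but -0.02 relative to them among cells with at least 4000 genes, where Gabra4 and Gabrb2 (2.72, and 2.20 there) were at 2 or more. Sodium and calcium channel genes (24 of 27 measured, 5 at 2 or more) lay 0.35 above, led by Cacna1e (3.05), the R-type calcium channel. Among cells with at least 4000 genes they lay 0.57 above, with 1 higher and 1 lower by at least 2. Over all titles, potassium and HCN channel genes (27 of 44 measured, 3 at 2 or more) lay at -0.07. Glutamate receptor genes (22 of 29 measured, 2 at 2 or more) lay at 0.01. Of 34 measured vesicle and release genes 9 were at 2 or more, among them Syn2 (3.08), a synapsin whose exons overlap Timp4, and the median lay at -0.02. Among cells with at least 4000 genes 2 were higher and 1 lower.

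Over all titles, adhesion and guidance genes had shares near the 10.9% of all genes. Of 43 measured synaptic adhesion genes 6 were at 2 or more, led by Il1rap (2.83) and Lrrtm4 (2.69), a postsynaptic organiser. Of 33 axon guidance genes 5 were, among them the receptor Nrp1 (2.73) and Sema3e. Among cells with at least 4000 genes 4 of the adhesion and 2 of the guidance genes were at 2 or more, where 2.91% of all genes were. Sparcl1, a matrix protein that promotes synapses, differed by 2.96 and reached 10 CPM in 18 of 21 keeping cells, 22 of 42 losing cells and 25 of 32 saline cells. Pcdh11x, a protocadherin, differed by -1.14 over all titles and -2.56 inside titles 1 to 48. Cadherins (20 measured) lay at -0.31 and matrix genes (14 measured) at -0.46 relative to all genes.

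Among metabolic lists, mitochondrially encoded mRNAs were lower relative to other genes. Of 13 such mRNAs 11 were measured, 2 above 0 and 0 at 2 or more in either direction, with a median 1.17 below that of all genes, 1.04 below inside titles 1 to 48 and 0.50 below among cells with at least 4000 genes, a list that shares its counts with the mitochondrial RNA named above. Relative to all genes, nuclear genes of oxidative phosphorylation (47 measured) lay at -0.35 and glycolysis genes (18 measured) at -0.01. Of those 47 genes 40 had a difference above 0, as had 7432 of all 8696 genes. Of 21 measured genes of cholesterol synthesis and lipid transport 4 were at 2 or more (1 among cells with at least 4000 genes), against 10.9% of all genes. They were led by Hmgcs1 (3.31) and Sc5d (2.92), enzymes of the cholesterol pathway, and the list's median lay 0.24 above that of all genes. Ribosomal protein genes (84 measured) lay at 0.03 and heat shock genes (23 measured, 5 at 2 or more and 0 among cells with at least 4000 genes) at 0.19 relative to all genes.

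Markers of glia were found in some cells of each group. Microglia markers summed to 0 to 31086 CPM (median 183) in keeping cells, 0 to 60516 CPM (median 171) in losing cells and 0 to 61782 CPM (median 1355) in saline cells. Of 12 measured microglia markers 0 were at 2 or more, where 10.9% of all genes were, too few markers for a count of 0 to set them apart. Relative to all genes their median lay at -0.44 over all titles and at 0.75 inside titles 1 to 48. In the second series, with 3 keeping cells, it lay at -3.26. Of 20 astrocyte markers 7 reached 10 CPM in no keeping cell and 5 in no losing cell, and the others did so in some cells. Aqp4, Gja1 and Gjb6 stayed under 10 CPM in every KA cell, whereas Apoe ran up to 30745 CPM in keeping and 43277 CPM in losing cells. Leaving out cells with at least 0.1% microglia counts, the all-gene median was 0.72, with 9.84% of genes higher and 0.333% lower.

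**Figure D5:**
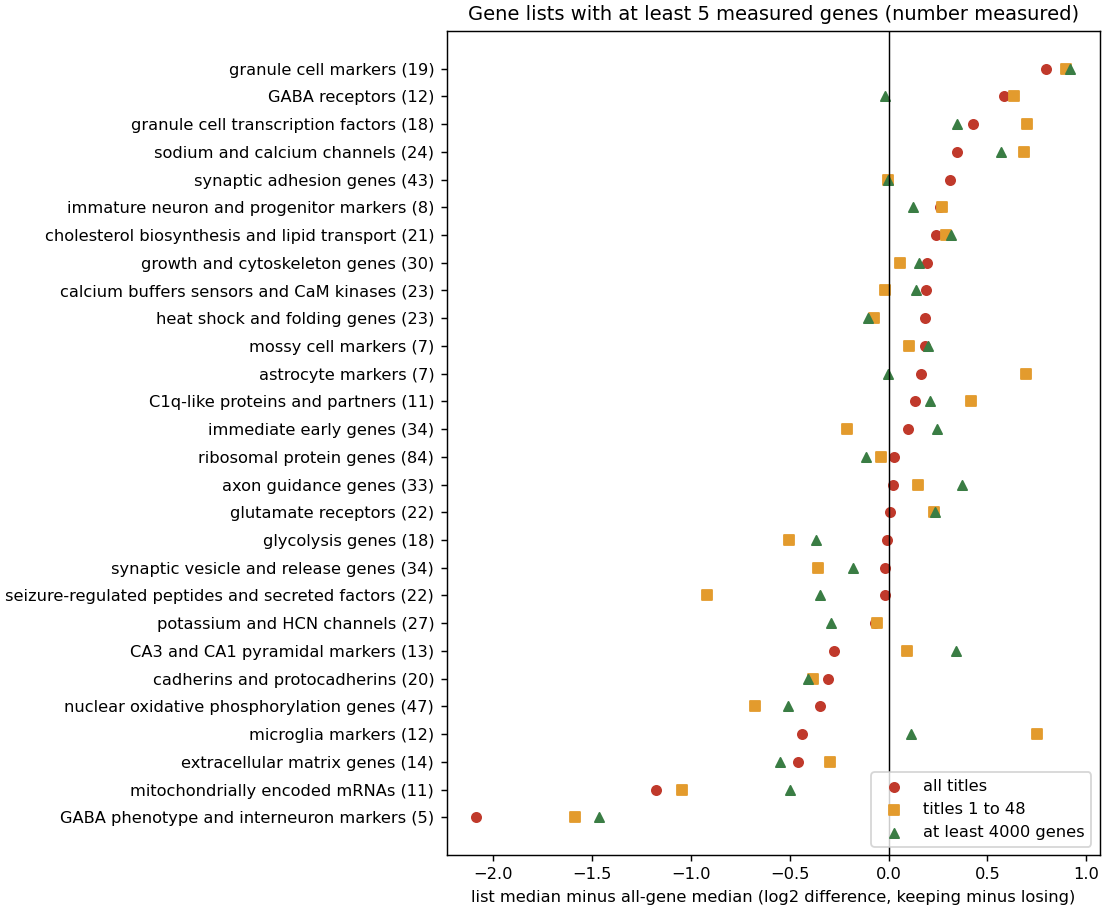
Median difference (keeping minus losing cells) of each gene list minus that of all 8696 genes, for the 28 lists with at least 5 measured genes (number measured in brackets); circles are all titles, squares titles 1 to 48, triangles cells with at least 4000 genes. Granule cell markers lie 0.80 to 0.92 above all genes in the 3 sets of cells, and the GABA and interneuron genes and mitochondrially encoded mRNAs below them.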

How the data were processed

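Single granule cells from KA and saline mice were sequenced with Nextera XT libraries without molecular identifiers or strand, per the labels' protocols. The authors deposited raw counts per gene for all cells and for those that passed their QC, and a normalized signal that is the count times 1 factor per cell. Trimmomatic, STAR, featureCounts and kallisto and the build GRCm38 are named per the submitters' processing notes, and their roles, versions and settings are not given in the sources used here.

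From the deposited counts, with 92 spike-in rows left out, CPM, log2(CPM+1), means and SD over cells, pooled CPM and exact binomial intervals were computed. Python 3.11.15, pandas 2.3.3, NumPy 2.4.6, SciPy 1.17.1 and Matplotlib 3.10.9 were used. The calculation was tested on simulated counts, drawn for every cell from a shared mean profile with changes planted in well expressed genes. That simulation did not copy the groups' unequal genes per cell, so it checks the code only. A gene was measured with at least 5 CPM in at least 20% of KA cells, and a difference of at least 2 was counted. Of 22870 symbols, 22566 matched GENCODE M21, used for exon overlaps. Promoters came from RefSeq. No test was made between the groups, since cells of 1 mouse cannot be known. Members and gene lists were chosen with earlier results of these data known, and the named genes are the 13 largest differences in each direction that have 1 sign in both title series and both EGFP classes and a size of at least 1 inside titles 1 to 48, predicted and clone genes left out. Genes outside that rule come from the gene lists. Alternatives were other C1ql2 thresholds, pseudocounts and filters on low values, counts thinned to 1000000 per cell, the authors' normalized signal, pooled counts, subsets of cells and the table without QC, and 2 more chosen after seeing the data.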

Additional observations from a re-analysis of the deposited data

Results flagged for a closer look

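In the 9 EGFP- keeping cells, 1 cell held C1ql2 at 881 CPM, with the next one at 452 CPM. The gap was 0.519 of the group's range, past the critical value of 0.493. In the same group 1 cell had 10222461 counts (1.02225e+07), with the next at 6.48687e+06 counts and a gap of 0.513 of the range. In normally spread values chance alone marks about 1 in 20 groups, and 2 of 8 checks were past the critical value. Neither CPM nor counts are known to be spread so, and C1ql2 itself made this group. The checks therefore cannot say whether either cell is unusual.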

How the results depend on the processing

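The share of keeping cells was 33.3%, and 16.7% in titles of the second series alone. The percentages of genes higher and lower by at least 2 (10.9% and 0.069%) moved most: to 1.49% and 0.023% with pseudocount 5, 24.03% and 0.310% with the authors' normalized values, 1.40% and 1.00% with pooled counts, 6.34% and 0.517% in titles 1 to 48, 27.9% and 4.88% in the second series, 16.7% and 0.667% in EGFP- cells, 17.5% and 0.701% in EGFP+ cells, and 2.91% and 0.759% among cells with at least 4000 genes. With genes per cell, series and class in the fit they were 1.72% and 0.92%. The higher share was 15.6% with 5 CPM in 50% of cells and 5.44% with no filter on low values, where more genes were tested (lower share 0.034%). The lower share was 0.126% at a threshold of 50 CPM, 0.115% for cells also marked as passed, 0.333% without cells at 0.1% or more microglia counts and 0.184% without the 3 longest title runs. The fit and the omission of title runs were chosen after seeing the data. Of 44 genes given with alternatives and at 2 or more, 37 kept their sign under all 18 alternatives. Those named by the rule were chosen for 1 sign in both title series and both EGFP classes. For them these subsets could not turn the sign, so the count of 37 is no measure of robustness. Signs turned for Gadd45b with pooled counts (-0.21) and in the second series, with 3 keeping cells, for Cartpt (0.20), Cpne7 (1.08), Stxbp6 (-0.62), Camk2n1 (-0.73), Ano3 (-0.74) and Klf9 (-0.13); the cause was not tested. No paired analysis was possible because no label ties cells of the groups to a mouse or to shared replicate numbers. Thinned to 1000000 counts per cell, 11.02% of genes were higher and the all-gene median was 0.90. Fewer than 4000 genes were found in 2 of 21 keeping cells and 17 of 42 losing cells.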
